A study of Mus musculus with 24 samples.

Results

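The 10 genes Dbp, Hlf, Tef, Per1, Per2, Per3, Ciart, Nr1d1, Nr1d2 and Arntl, which belong to the circadian clock or to its output, were taken by symbol from the count files of mouse heart, in which 24421 genes are listed. All 10 were present and all 10 passed the filter on low counts, as did 15804 genes in all. RNA captured by polyA was sequenced from 24 heart samples of male mice aged 14 weeks, fed chow, on a mixed background that is mostly C57BL/6N with some 129, with 1 library per sample. The libraries fall into 6 genotypes of Acadl and Acadvl, which encode the long-chain and very long-chain acyl-CoA dehydrogenases of mitochondrial fatty acid oxidation. Of these, 4 were labelled Acadl KO / Acadvl wt and 5 Acadl KO / Acadvl Het. A further 4 were Acadl Het / Acadvl KO, 3 carried Het labels at both genes, and 4 were Acadl Het / Acadvl wt. The last 4 were Acadl wt / Acadvl wt, called wild type here. The labels name no Cre or promoter for these alleles, do not say that the samples came from separate mice, and do not give the time of day at which hearts were taken.

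The clock is a loop of transcription. ARNTL, also called BMAL1, pairs with CLOCK and activates genes that carry E-boxes, among them the Per genes, Nr1d1, Nr1d2, Ciart and Dbp. PER proteins act with cryptochromes to repress that pair, CIART (CHRONO) represses it too, and the nuclear receptors NR1D1 and NR1D2 (REV-ERB alpha and beta) repress Arntl. DBP, HLF and TEF are related leucine zipper factors that pass the rhythm on through D-boxes in other genes. In mouse heart, as in other tissues, transcripts of these genes rise and fall over the day, with Arntl near its trough when Dbp and Per3 are high.

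Each library held 34320838 to 51743114 counts in all, with 17571 to 18351 genes detected. The labels name 2 batches of RNA isolation, batch 1 with 9 libraries and batch 2 with 15, and no genotype is confined to 1 of them. Acadl went against its label: it stood at 1697 to 2100 CPM in the 9 libraries labelled Acadl KO, against 1324 to 1412 CPM in wild type. Those libraries are therefore called labelled Acadl KO, and every direction given for them rests on the label. Acadvl stood at 494.7 to 733.8 CPM in Acadl Het / Acadvl KO hearts, against 1550 to 1743 CPM in Acadl Het / Acadvl wt hearts. The ventricular markers were abundant throughout, with the lowest library at 34410 CPM of Myh6, the alpha myosin heavy chain. Alb, a liver transcript, was above 10 CPM in 6 libraries: all 3 of Acadl Het / Acadvl Het, replicate 2 of Acadl Het / Acadvl KO, and replicates 2 and 3 of labelled Acadl KO / Acadvl wt. They are called Alb-rich here.

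Promoters are shown for Ciart, Per3 and Hlf, because these 3 genes passed the test in every comparison in which any of the 10 did. Each is the 250 bases before the RefSeq start site on GRCm38.p6, on the gene's own strand, and capitals mark a motif match. The bases just after the start site were found in a GENCODE M21 transcript of the gene for Ciart and Per3. They were not found for Hlf, so its distances rest on the RefSeq start alone. Ciart lies at chr3:95882229-95882478, Per3 at chr4:151044666-151044915 and Hlf at chr11:90390918-90391167, each on the minus strand.
Ciart: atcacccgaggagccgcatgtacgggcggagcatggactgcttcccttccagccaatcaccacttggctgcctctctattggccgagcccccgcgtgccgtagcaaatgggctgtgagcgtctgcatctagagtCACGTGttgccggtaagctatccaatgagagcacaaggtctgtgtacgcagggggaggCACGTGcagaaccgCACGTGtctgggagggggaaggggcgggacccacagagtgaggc
Per3: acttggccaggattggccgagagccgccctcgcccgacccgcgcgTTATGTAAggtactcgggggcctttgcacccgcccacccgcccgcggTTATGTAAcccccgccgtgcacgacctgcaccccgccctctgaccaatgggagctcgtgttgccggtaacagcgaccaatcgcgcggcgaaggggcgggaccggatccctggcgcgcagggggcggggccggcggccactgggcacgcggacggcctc
Hlf: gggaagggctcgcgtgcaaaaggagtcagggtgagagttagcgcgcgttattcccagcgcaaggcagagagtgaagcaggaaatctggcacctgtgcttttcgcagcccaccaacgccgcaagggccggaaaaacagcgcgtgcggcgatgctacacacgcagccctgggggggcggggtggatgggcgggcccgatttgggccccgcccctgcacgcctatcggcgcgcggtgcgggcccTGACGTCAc

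The letters searched, on both strands, were the E-box CACGTG, the D-box TTANGTAA, the nuclear receptor half-site AGGTCA and the cAMP response element TGACGTCA. No match of one motif overlapped a match of another in these windows. The Ciart window held 3 E-boxes, which start 116, 58 and 44 bases before the start site. E-boxes occur in 6.02% of the 32817 RefSeq promoter windows of the same length. The Per3 window held 2 D-boxes, 205 and 158 bases upstream, and D-boxes occur in 2.06% of windows. Hlf held 1 cAMP response element 9 bases upstream, which 1.55% of windows hold. Of the others, Tef held 1 E-box at each of its start sites and Nr1d2 a half-site, which 14% of windows hold. Per1 held an E-box and a half-site at its upstream start site and none of these letters at the other. The windows of Dbp, Nr1d1 and Arntl held none of these letters. Nr1d1, like Hlf, had no GENCODE M21 transcript with the bases just after its RefSeq start. RefSeq gave windows for 9 of the 10 genes.

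Compared per length of exon, as RPKM averaged over all 24 libraries, Nr1d1 was highest at 38.5 ± 13.2 (SD), then Tef at 31.9 ± 7.52, Per1 at 27.5 ± 10.1 and Nr1d2 at 19.9 ± 3.11. Arntl followed at 12.5 ± 3.22, Dbp at 6.77 ± 5.02, Ciart at 4.48 ± 2.42, Per2 at 3.32 ± 1.16, Per3 at 2.77 ± 1.41 and Hlf at 2.13 ± 1.26. Each gene differed from its neighbour in this order by less than the larger of their SDs, except Nr1d2 from Arntl and Arntl from Dbp. The highest library held 10.3 times the CPM of the lowest for Dbp, 8.36 times for Ciart, 7.34 times for Per3 and 6.04 times for Hlf, against 2.00 times for Nr1d2. The lowest raw count of any of the 10 in any library was 68 reads, of Ciart.

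**Figure D1:**
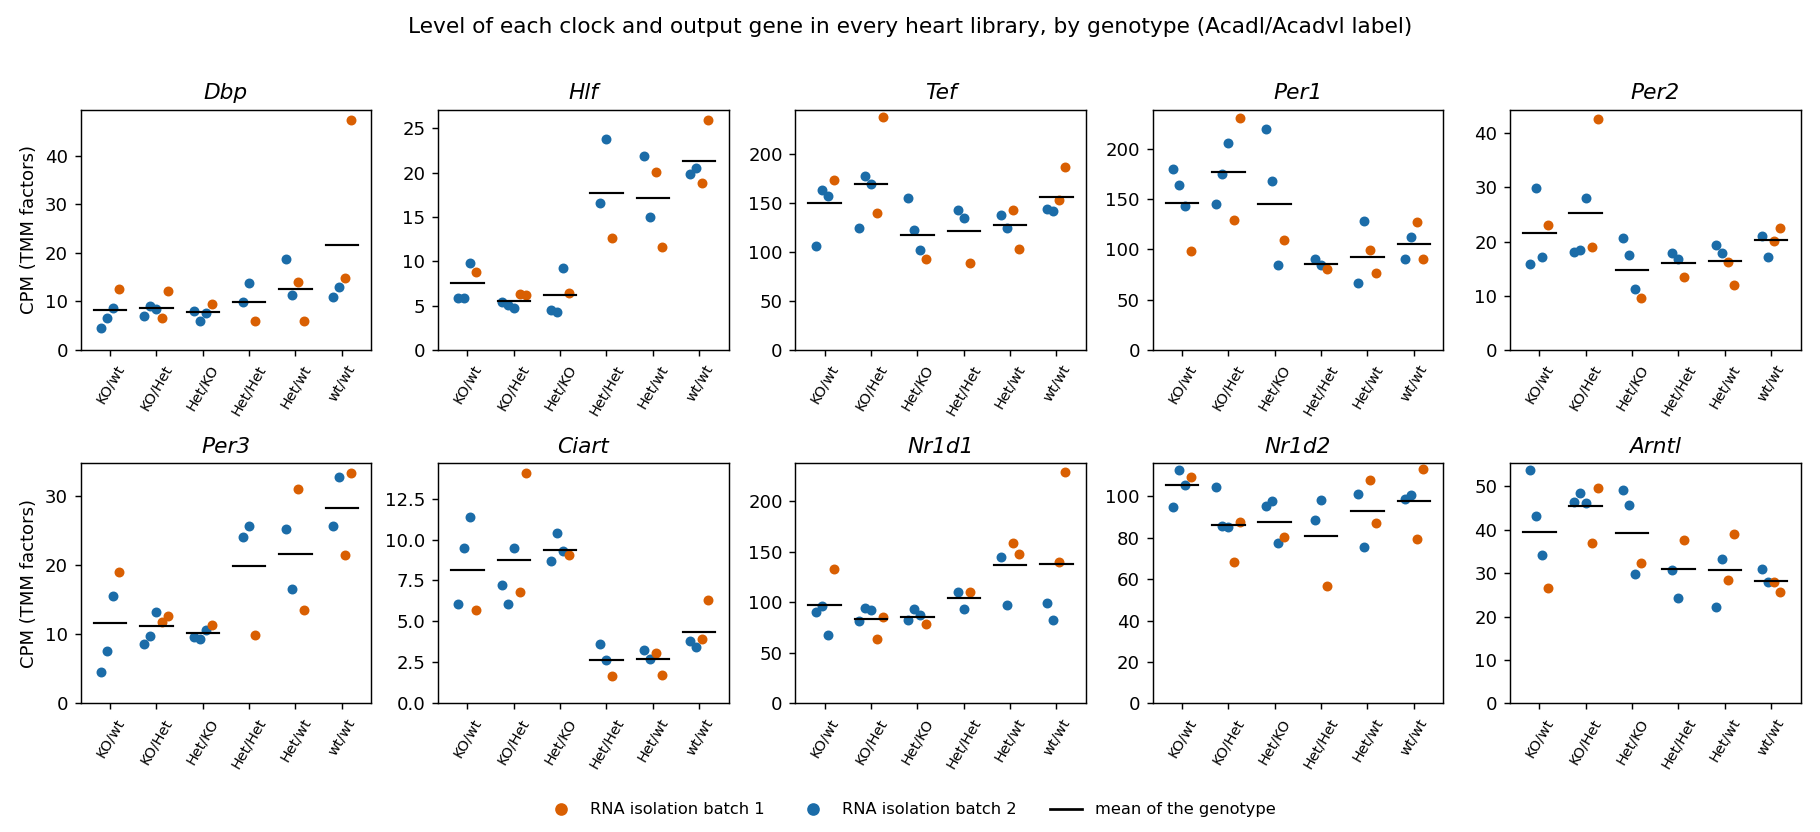
CPM of each gene (vertical axes, from 0) in each of the 24 libraries, by genotype (Acadl label / Acadvl label), with points coloured by RNA isolation batch and a bar at the genotype's mean. Hlf sits at 4.30 to 9.76 CPM in the 13 libraries with a KO label, below the 11 others at 11.6 to 26.0 CPM, and Dbp has 1 wild-type library at 47.4 CPM.

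Libraries labelled Acadl KO / Acadvl wt were compared with wild type in a fit of all 24 libraries (edgeR's quasi-likelihood test, adjusted over all genes). Of the 10 genes 4 were called at an adjusted p under 0.05, Ciart higher and Dbp, Hlf and Per3 lower, when 37.2% of all genes tested were called, 19.6% higher and 17.6% lower. Against the 7 Acadl Het libraries with no KO label, the 9 libraries labelled Acadl KO had 5 of the genes higher and 3 lower, when 54.7% of all genes were called, 26.7% higher and 27.9% lower. In Acadl Het / Acadvl KO hearts against Acadl Het / Acadvl wt hearts 3 were called, Ciart higher and Hlf and Per3 lower, when 24.4% of all genes were called, 12.9% higher and 11.5% lower. The shares of the clock genes called were close to the background against wild type and in Acadl Het / Acadvl KO hearts. Their median log2 change was 0.01, 0.24 and -0.14 in these 3 comparisons, beside -0.02, -0.02 and 0.02 over all genes. The comparisons with Acadl Het and of Acadl Het / Acadvl KO hearts share the Acadl Het / Acadvl wt libraries, and the first and second share the libraries labelled Acadl KO / Acadvl wt. Without the Alb-rich libraries 2, 4 and 2 genes were called in the 3 comparisons, in that order. Calls over all genes fell too, from 5874, 8639 and 3853 to 3871, 6380 and 2758. Fewer libraries enter there, since replicates 2 and 3 of labelled Acadl KO / Acadvl wt are dropped. So are replicate 2 of Acadl Het / Acadvl KO and all of Acadl Het / Acadvl Het. In a bulk sample, less RNA per cell and fewer cells of a type cannot be told apart.

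Hlf, the hepatic leukaemia factor of the D-box family (chr11:90336535-90390917 on mm10, minus strand), fell in all 3 comparisons. Its levels were 5.89, 5.80, 9.76 and 8.74 CPM in libraries labelled Acadl KO / Acadvl wt, against 19.8, 20.6, 18.9 and 26.0 CPM in wild type. The groups did not overlap, as for 35.8% of all genes tested (17.7% below). The log2 change was -1.49 (SE 0.25, edgeR adjusted p = 0.000131), a level 0.356 times that of wild type. Against Acadl Het, the 9 labelled Acadl KO libraries ran from 4.76 to 9.76 CPM (median 5.89), against 11.6 to 23.9 CPM (median 16.5) in the 7, with no overlap (log2 change -1.43, SE 0.18, edgeR adjusted p = 1.761e-06). Of all genes 18.3% did not overlap there, 7.92% below. Acadl Het / Acadvl KO hearts held 4.53, 4.30, 9.29 and 6.46 CPM, against 21.9, 15.0, 20.04 and 11.6 CPM in Acadl Het / Acadvl wt hearts, again with no overlap (log2 change -1.47, SE 0.25, edgeR adjusted p = 0.000316). There 23.5% of all genes did not overlap, 11.7% below. Taking the libraries by whether any label is KO, a split chosen after the values were seen, all 13 with a KO label lay below all 11 others. Of all genes tested 8.56% did not overlap in that split, 4.97% above and 3.59% below. Within batch 2 the log2 change of Hlf was -1.49, -1.67 and -1.60 in the 3 comparisons, each called, and within batch 1 it was -1.35, -0.93 and -1.28, none called. Batch 1 sets 3 libraries against 3 in the comparison with Acadl Het and 1 against 2 in the others. Without the Alb-rich libraries it was -1.55, -1.43 and -1.31, each called.

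Dbp, the albumin D-box binding protein (chr7:45705247-45710203, plus strand), fell in the first comparison but the size rested on few libraries. It stood at 4.58, 6.62, 8.73 and 12.6 CPM in libraries labelled Acadl KO / Acadvl wt, against 11.01, 13.03, 14.8 and 47.4 CPM in wild type. The groups overlapped, and wild-type replicate 4 stood far above the other wild-type libraries. The log2 change was -1.31 (SE 0.43, edgeR adjusted p = 0.0214). It was -0.66 without wild-type replicate 4, -1.13 without replicate 1 and -1.23 without replicate 2 of the labelled Acadl KO libraries, and none of these 3 passed the threshold. Within batch 2 it was -0.85, called, within batch 1 -1.29 and without the Alb-rich libraries -1.32, neither of them called. Against Acadl Het, with 4.58 to 12.6 CPM (median 8.42) in the 9 and 5.93 to 18.7 CPM (median 11.3) in the 7, it was -0.42 (SE 0.30, edgeR adjusted p = 0.252), with opposite directions within batches: -0.85 in batch 2, which was called, and 0.49 in batch 1, which was not. It was -0.22 without replicate 2 of Acadl Het / Acadvl Het and -0.24 without replicate 1 of Acadl Het / Acadvl wt. Acadl Het / Acadvl KO hearts stood at 5.93 to 9.56 CPM and Acadl Het / Acadvl wt hearts at 5.93 to 18.7 CPM (log2 change -0.64, SE 0.42, edgeR adjusted p = 0.290), but it was called within batch 2 at -1.06, and it was -0.25 without Acadl Het / Acadvl wt replicate 1. Reads were counted without strand, and Dbp shares 539 exon bases with Sphk2 on the opposite strand, which averaged 42.3 CPM against 11.4 CPM for Dbp, so their reads cannot be told apart there. Sphk2 differed by 0.09 (SE 0.10) where Dbp fell by 1.31 on the log2 scale. Against Acadl Het, where Dbp was at -0.42, Sphk2 was called higher at 0.24 (SE 0.07, edgeR adjusted p = 0.0100). In Acadl Het / Acadvl KO hearts, where Dbp was at -0.64, Sphk2 was at 0.10 (SE 0.10), not called.

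Tef, thyrotroph embryonic factor (chr15:81802673-81826863, plus strand), was the most abundant gene of the family and was not called against wild type. Libraries labelled Acadl KO / Acadvl wt held 106 to 174 CPM and wild type 141 to 187 CPM, which overlapped (log2 change -0.06, SE 0.21, edgeR adjusted p = 0.845). It rose against Acadl Het by 0.36 (SE 0.15, edgeR adjusted p = 0.0466), with 105.9 to 237.4 CPM in the 9 and 88.2 to 143 CPM in the 7. That call was lost when any 1 of 12 libraries was left out (0.26 to 0.36). They were replicates 2, 3 and 4 of labelled Acadl KO / Acadvl wt, 2, 3 and 5 of labelled Acadl KO / Acadvl Het, 2 of Acadl Het / Acadvl KO, 3 of Acadl Het / Acadvl Het, 2 and 4 of Acadl Het / Acadvl wt, and 1 and 3 of wild type. The change was 0.15 within batch 2, 0.80 within batch 1 and 0.27 without the Alb-rich libraries, none of them called. Nor was it called with limma voom (0.34), with no filter on low counts (0.36) or with the number in each title as a block in place of batch (0.37). In Acadl Het / Acadvl KO hearts it was -0.11 (SE 0.21), not called. Tef shares 193 exon bases with Gm17597 in GENCODE M21, and Arntl 33 with Gm45355. Neither overlap is present in the UCSC genes used for counting, where only Dbp shares exon bases with another gene.

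Ciart (chr3:95878505-95882228, minus strand), the repressor of the BMAL1 and CLOCK pair whose promoter window holds the 3 E-boxes, rose in all 3 comparisons. Libraries labelled Acadl KO / Acadvl wt held 6.05, 9.51, 11.4 and 5.68 CPM, against 3.82, 3.41, 3.92 and 6.32 CPM in wild type. Only wild-type replicate 4 reached into the other group. The log2 change was 0.88 (SE 0.29, edgeR adjusted p = 0.0211), and the call was lost without wild-type replicate 1 (0.81) or 2 (0.77), or without labelled Acadl KO / Acadvl wt replicate 2 (0.83) or 3 (0.70). It was 1.32 within batch 2, 0.16 within batch 1, and 0.43 without the Alb-rich libraries, where it was not called. Against Acadl Het the difference was larger: 5.68 to 14.0 CPM (median 7.22) in the 9 labelled Acadl KO libraries and 1.68 to 3.59 CPM (median 2.71) in the 7. These did not overlap (10.4% of all genes lay above in the same way), and the log2 change was 1.67 (SE 0.22, edgeR adjusted p = 3.165e-06), or 3.17-fold. It was called within batch 1 (1.94), within batch 2 (1.45) and without the Alb-rich libraries (1.43). Acadl Het / Acadvl KO hearts held 8.70, 10.4, 9.29 and 9.05 CPM, against 3.26, 2.71, 3.05 and 1.73 CPM in Acadl Het / Acadvl wt hearts. These did not overlap either, like 11.7% of all genes above (log2 change 1.81, SE 0.30, edgeR adjusted p = 0.000192). The change was 1.67 within batch 2 and 1.93 within batch 1, the second not called. Acadl Het / Acadvl wt hearts lay below all 4 wild-type libraries (log2 change -0.72, SE 0.30), which was not called (edgeR adjusted p = 0.9997). Of all genes 3.28% did not overlap there, 1.88% above and 1.4% below.

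**Figure D2:**
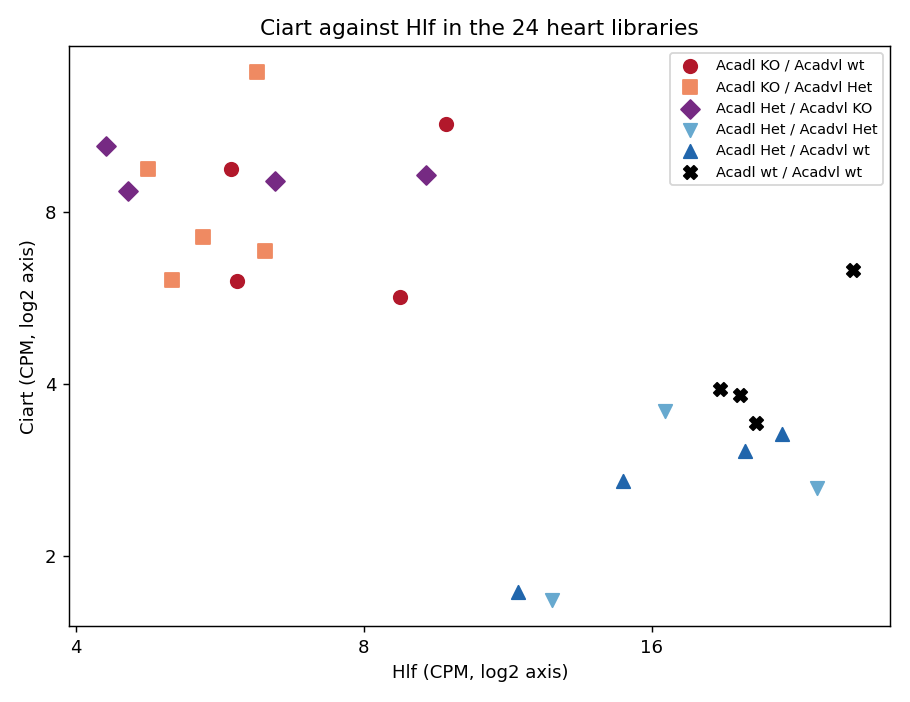
Ciart (vertical axis) against Hlf (horizontal axis), both in CPM on log2 axes, 1 point per library, with shape and colour for the genotype. The 13 libraries with a KO label lie at lower Hlf than the 11 others, and at higher Ciart except that wild-type replicate 4, at 6.32 CPM, lies above 3 of them.

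The log2 ratio of Ciart to Hlf, a measure chosen after their values were seen, was -0.62 to 0.71 in libraries labelled Acadl KO / Acadvl wt, 0.11 to 1.18 in labelled Acadl KO / Acadvl Het and 0 to 1.28 in Acadl Het / Acadvl KO. It was -3.18 to -2.20 in Acadl Het / Acadvl Het, -2.75 to -2.46 in Acadl Het / Acadvl wt and -2.59 to -2.04 in wild type. The ranges of the 3 genotypes with a KO label overlapped each other, and none of them reached those of the 3 without. Hlf alone already set these libraries apart, so the separation of the ratio follows from its choice and is no further support.

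The 3 Per genes encode the period proteins of the negative arm and differed among themselves. Per3 (chr4:151003655-151044665, minus strand) fell in all 3 comparisons. It stood at 4.53, 7.55, 15.5 and 19.0 CPM in libraries labelled Acadl KO / Acadvl wt, against 25.6, 32.7, 21.4 and 33.2 CPM in wild type. The groups did not overlap, like 35.8% of all genes, 17.7% below (log2 change -1.26, SE 0.35, edgeR adjusted p = 0.00864), although the labelled Acadl KO libraries spanned a wide range, with replicate 1 lowest and replicate 4 highest. It was -1.65 within batch 2, called, and -0.51 within batch 1, not called. Against Acadl Het the change was -0.86 (SE 0.25, edgeR adjusted p = 0.00725), with 4.53 to 19.0 CPM in the 9 and 9.87 to 31.0 CPM in the 7, which overlapped. It was -1.20 within batch 2, called, and 0.043 within batch 1. Acadl Het / Acadvl KO hearts were tightly placed at 9.65, 9.25, 10.5 and 11.3 CPM, against 25.2, 16.6, 31.0 and 13.5 CPM in Acadl Het / Acadvl wt hearts. These did not overlap, like 11.7% of all genes below. The log2 change was -1.06 (SE 0.36, edgeR adjusted p = 0.0369), and the call was lost without Acadl Het / Acadvl wt replicate 1 or 3 or without any 1 of the 4 Acadl Het / Acadvl KO libraries (-1.09 to -0.84). Nor was it called within batch 2 (-1.09), within batch 1 (-0.97), with limma voom (-1.01), with no filter on low counts (-1.07) or without the Alb-rich libraries (-0.99). Without these last, the changes of -1.32 against wild type and -0.92 against Acadl Het were called.

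Per1 (chr11:69098956-69109957, plus strand) rose against Acadl Het, with 97.9 to 231 CPM (median 164) in the 9 labelled Acadl KO libraries and 67.04 to 128 CPM (median 84.7) in the 7. The log2 change was 0.84 (SE 0.19, edgeR adjusted p = 0.00093), and labelled Acadl KO / Acadvl wt replicate 4, at the low end, reached into the other group. Within batch 2 it was 0.87, called, and within batch 1 0.67, not called. The change was 0.41 (SE 0.26) against wild type and 0.60 (SE 0.26) in Acadl Het / Acadvl KO hearts, neither of them called (edgeR adjusted p = 0.230 and 0.0993). Without Acadl Het / Acadvl KO replicate 3 the change in Acadl Het / Acadvl KO hearts was called, at 0.79, and without replicate 1 of that genotype it was 0.37, not called.

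Per2 (chr1:91415982-91459328, minus strand) rose against Acadl Het by 0.52 (SE 0.20, edgeR adjusted p = 0.0323), with 15.9 to 42.7 CPM (median 19.1) in the 9 and 12 to 19.3 CPM (median 16.9) in the 7. That call was lost without labelled Acadl KO / Acadvl wt replicate 2 or 4, labelled Acadl KO / Acadvl Het replicate 5, replicate 3 of Acadl Het / Acadvl Het or replicate 4 of Acadl Het / Acadvl wt (0.38 to 0.50). It was 0.25 within batch 2, 0.96 within batch 1 and 0.44 without the Alb-rich libraries, none of them called. Per2 was at 0.08 (SE 0.28) against wild type and -0.16 (SE 0.28) in Acadl Het / Acadvl KO hearts, not called.

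Nr1d1 (chr11:98767932-98775377, minus strand) and Nr1d2 (chr14:18204056-18239106, minus strand) encode the REV-ERB repressors. Nr1d1 stood at 90.4, 96.6, 68.0 and 133 CPM in libraries labelled Acadl KO / Acadvl wt, against 99.0, 82.5, 139 and 229 CPM in wild type. These overlapped (log2 change -0.41, SE 0.22, edgeR adjusted p = 0.161), and wild-type replicate 4 was again the highest library. Without it the change was -0.12. It fell against Acadl Het by 0.38 (SE 0.16, edgeR adjusted p = 0.0462), with 63.5 to 133 CPM in the 9 and 93.5 to 159 CPM in the 7. That call was lost when any 1 of 16 libraries was left out (-0.41 to -0.31). They were replicates 1, 2 and 3 of labelled Acadl KO / Acadvl wt, 1, 4 and 5 of labelled Acadl KO / Acadvl Het, 1, 2 and 3 of Acadl Het / Acadvl KO, all 3 of Acadl Het / Acadvl Het, 1, 3 and 4 of Acadl Het / Acadvl wt, and 3 of wild type. The change was -0.34 within batch 2, called, and -0.38 within batch 1 and -0.48 without the Alb-rich libraries, neither of them called. Nor was it called with no filter on low counts (-0.37) or with the number in each title as a block in place of batch (-0.44). Acadl Het / Acadvl KO hearts, at 78.7 to 92.8 CPM, lay below Acadl Het / Acadvl wt hearts, at 96.7 to 159 CPM, as 11.7% of all genes did, but the change was not called (-0.58, SE 0.22, edgeR adjusted p = 0.0623). It was called at -0.59, -0.60 and -0.70 without wild-type replicate 2, wild-type replicate 4 or Acadl Het / Acadvl wt replicate 2, and DESeq2 called it too. In the GENCODE M21 annotation Nr1d1 shares 263 exon bases with Thra, the thyroid hormone receptor alpha gene on the opposite strand. In the UCSC genes used for counting they share none, as Thra ends at 98765111 and Nr1d1 starts at 98767932. Thra fell by 0.47 (SE 0.11) in the first comparison and by 0.49 (SE 0.08) in the second on the log2 scale. Nr1d2 was not called in any comparison, at 0.08 (SE 0.15), 0.13 (SE 0.11) and -0.12 (SE 0.15) in the 3.

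Arntl (chr7:113207465-113314126, plus strand), the activator, stood at 53.7, 43.1, 34.2 and 26.5 CPM in libraries labelled Acadl KO / Acadvl wt, against 30.8, 27.9, 28.1 and 25.7 CPM in wild type. The labelled Acadl KO libraries spread from the wild-type level upward, and the groups overlapped (log2 change 0.46, SE 0.21, edgeR adjusted p = 0.0842). It was called at 0.64 without labelled Acadl KO / Acadvl wt replicate 4, and was 0.29 (not called) without replicate 1 of that genotype. Arntl rose against Acadl Het by 0.44 (SE 0.15, edgeR adjusted p = 0.0160), with 26.5 to 53.7 CPM (median 46.0) in the 9 and 22.2 to 39.0 CPM (median 30.8) in the 7. That was 0.72 within batch 2, called, and -0.066 within batch 1, and the call was lost without Acadl Het / Acadvl Het replicate 2 (0.36) or the Alb-rich libraries (0.44). In Acadl Het / Acadvl KO hearts the change was 0.33 (SE 0.21), not called, and 0.18 without Acadl Het / Acadvl wt replicate 1.

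**Figure D3:**
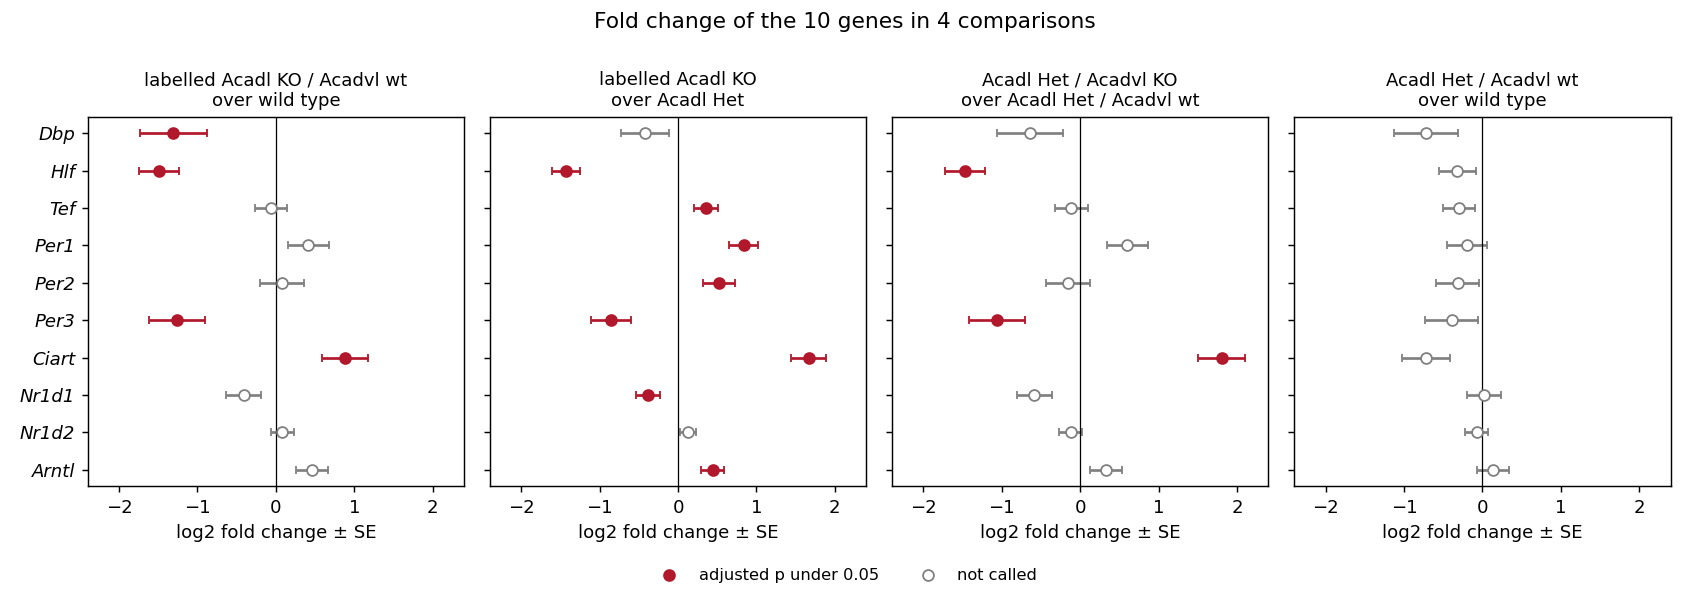
Log2 fold change with its SE (horizontal axes) of each gene in 4 comparisons, the group named over its comparator above each panel, filled red where the adjusted p was under 0.05. Hlf and Per3 are red on the left and Ciart red on the right in the first 3 panels, and no gene is red in the fourth.

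Libraries labelled Acadl KO / Acadvl wt were also set against Acadl Het / Acadvl KO hearts. None of the 10 genes was called by edgeR, DESeq2 or limma voom and 0 had an unadjusted p under 0.05, when edgeR called 4.43% of all genes, 1.77% higher and 2.66% lower. The libraries of the 2 genotypes overlapped for each of the 10, and did not for 8.05% of all genes (4.26% above and 3.78% below). The log2 changes ran from -0.20 (Ciart, 95% interval -0.76 to 0.36) to 0.55 (Per2, 95% interval -0.032 to 1.13), and intervals this wide do not show equal levels. Acadl Het / Acadvl wt hearts were set against wild type, where edgeR, DESeq2 and limma voom each called 0 of the 10 genes and edgeR 0% of all genes (541 at an unadjusted p under 0.05, and 1 called by DESeq2). There 8 of the 10 were below 0, from -0.72 (Ciart, and Dbp at -0.72) to -0.07 (Nr1d2), and 1, Ciart, had an unadjusted p under 0.05. The median of the 10 was -0.31, beside 0.0004 over all genes. Wild-type replicate 4 was the highest wild-type library for each of the 8 except Per1. The difference between the labelled Acadl KO effect at Acadvl Het and at Acadvl wt was called for 0 of the 10 by the same 3 tools, with 0 at an unadjusted p under 0.05 and edgeR calling 0% of all genes (817 at an unadjusted p under 0.05, and 100 called by DESeq2). Those differences ran from -0.50 (Hlf, SE 0.36) to 0.47 (Per1, SE 0.37).

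Other genes of the clock loop were read from the same fit. Of 18, 6 were higher and 3 lower in libraries labelled Acadl KO / Acadvl wt than in wild type, with a median log2 change of 0.18, when 19.6% of all genes were higher and 17.6% lower. Cry1, a cryptochrome partner of PER, rose by 0.72 (SE 0.17). Bhlhe40, a repressor at E-boxes also called DEC1, was lower at -0.61 (SE 0.17), Arntl2, a relative of Arntl, at -0.999 (SE 0.17) and Fbxl21, an F-box protein that acts on cryptochromes, at -1.28 (SE 0.37). Against Acadl Het 8 were higher and 4 lower (26.7% and 27.9% of all genes), Timeless among the lower at -1.14 (SE 0.19). In Acadl Het / Acadvl KO hearts 3 were higher and 2 lower (12.9% and 11.5% of all genes), with Bhlhe40 at -0.91 (SE 0.17) and Arntl2 at -0.67 (SE 0.17). Their medians there were 0.20 and 0.053. Of 15 further output genes 3, 6 and 2 were higher and 1, 1 and 0 lower in the 3 comparisons. Por, the electron donor of cytochromes P450, rose by 1.63, 1.30 and 1.26 (SE 0.15, 0.11 and 0.15), while Tcap, the sarcomere protein telethonin, was lower at -1.18 (SE 0.26) in the first. Usp2, a deubiquitinase, rose by 0.47 and 0.73 and Dgat2, a triglyceride synthase, by 0.56 and 0.51 in the first and second (SE 0.17, 0.12, 0.12 and 0.087), and Klf9 by 0.45 (SE 0.11) and Coq10b by 0.27 (SE 0.11) in the second. Each of these calls had an edgeR adjusted p under 0.05.

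Gene lists tied to inputs of the clock were read in the same way. The shares of all genes called higher were 19.6%, 26.7% and 12.9% in the 3 comparisons, and lower 17.6%, 27.9% and 11.5%. Of 10 glucocorticoid-induced genes 3, 5 and 2 were higher and 0, 1 and 0 lower in the 3 comparisons (medians 0.72, 0.63 and 0.57). Higher against wild type were Sgk1, Mt1 and Cdkn1a, and in Acadl Het / Acadvl KO hearts Ddit4 and Cdkn1a. Tsc22d3 and Zbtb16 were called in none of the 3, and Fkbp5 only against Acadl Het. Of 8 temperature-responsive genes 2, 3 and 1 were higher and 0 lower. Of 16 immediate early genes 5, 3 and 2 were higher and 1, 6 and 2 lower.

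Since sampling time is not given, the spread between libraries of 1 genotype was measured as the SD of log2 CPM after genotype and RNA isolation batch were removed. It was highest for Dbp at 0.62 and Per3 at 0.56, followed by Ciart at 0.43, Per2 at 0.41, Per1 at 0.39 and Hlf at 0.38. Nr1d1 stood at 0.33, Tef and Arntl at 0.31 each and Nr1d2 at 0.22. All 10 lay above the median of all genes tested (0.197), none lay above the 95th percentile (0.685), and their own median was 0.384. Among the 1000 genes nearest in level, Dbp and Per3 stood at the 98.6th percentile and Nr1d2, the least variable, at the 88.1st. The spread was not the same in each genotype. For Dbp the SD of log2 CPM was 0.61 in labelled Acadl KO / Acadvl wt, 0.34 in labelled Acadl KO / Acadvl Het, 0.28 in Acadl Het / Acadvl KO, 0.59 in Acadl Het / Acadvl Het, 0.70 in Acadl Het / Acadvl wt and 0.96 in wild type. The wild-type value includes replicate 4, which at 47.4 CPM stood far above the other wild-type libraries. For Per3 the SD of log2 CPM was 0.95 in labelled Acadl KO / Acadvl wt and 0.13 in Acadl Het / Acadvl KO.

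**Figure D4:**
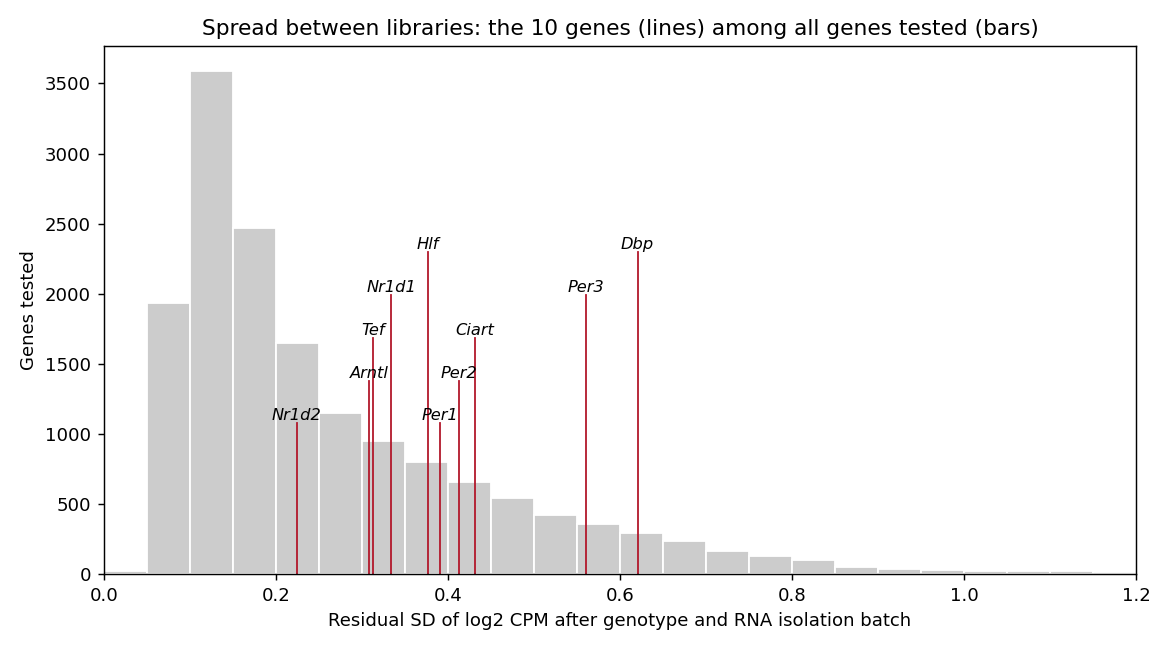
Number of genes tested (vertical axis) by residual SD of log2 CPM after genotype and RNA isolation batch (horizontal axis, 0 to 1.2), with a line at each of the 10 genes. The lines run from 0.22 (Nr1d2) to 0.62 (Dbp), all to the right of the all-gene median of 0.197.

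These deviations were shared between genes. Of the 45 pairs, 21 were called over the 24 libraries (permutation test on Pearson's r of the residuals, 100000 resamples, two-sided, Benjamini-Hochberg over the 45), 17 positive and 4 negative, and 18 of them also by Spearman's rho. The residuals have 17 degrees of freedom, so these p-values are somewhat too small. The share of pairs called among all genes was not measured, so the count of 21 is not read as particular to these genes. The strongest was Hlf with Arntl (r = -0.865, rho = -0.865, adjusted permutation p = 0.00045 for each), which was -0.837 without the 2 libraries farthest from the median of Hlf, -0.918 within batch 2 and -0.725 within batch 1. Libraries with more Arntl than their genotype's mean held less Hlf. Per3 with Arntl gave r = -0.761 (rho = -0.75, adjusted permutation p = 0.00045 and 0.00063), at -0.669 without the 2 farthest, -0.687 within batch 2 and -0.658 within batch 1. Dbp with Arntl gave r = -0.615 (rho = -0.589, adjusted permutation p = 0.00525 and 0.0103), at -0.631, -0.705 and -0.279 in the same order.

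Dbp, Hlf and Per3 rose and fell together across libraries. Dbp with Per3 gave r = 0.695 (rho = 0.76, adjusted permutation p = 0.00153 and 0.00063), at 0.74 without the 2 farthest, 0.821 within batch 2 and 0.858 within batch 1. Hlf with Per3 gave r = 0.701 (rho = 0.73, adjusted permutation p = 0.00146 and 0.00075), at 0.754, 0.547 and 0.994. A second close pair was Tef with Per2 (r = 0.816, rho = 0.763, adjusted permutation p = 0.00045 and 0.00063), at 0.752, 0.695 and 0.967. Per1 went with Arntl (r = 0.664, rho = 0.654, adjusted permutation p = 0.0027 and 0.00467), at 0.577, 0.823 and 0.396. Of the 21 pairs 19 had the same sign within both batches. Hlf with Per1 was -0.546 over all libraries but 0.0689 within batch 1, and Dbp with Nr1d1 was 0.48 over all but -0.0839 within batch 2 and 0.198 without wild-type replicate 4. Within batch 1 only 6 libraries have a residual, since 3 genotypes have 1 library each there, and those values carry little weight. The 6 are 2 libraries from each of 3 genotypes, whose residuals mirror each other, so a shared sign there says little.

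**Figure D5:**
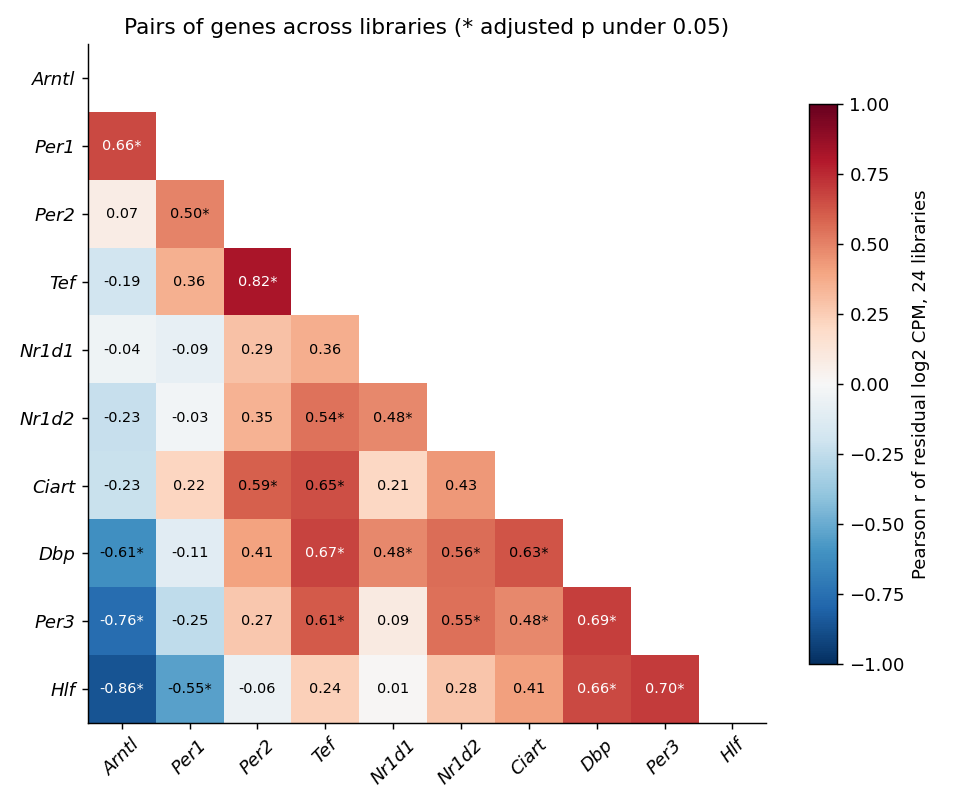
Pearson's r (colour and number) of residual log2 CPM over 24 libraries for each pair of the 10 genes, with a star where the adjusted permutation p was under 0.05. Arntl is negative with Dbp, Per3 and Hlf at the foot of its column, and those 3 are positive with each other.

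The genes whose residuals went most closely with those of Dbp and Arntl were picked from 13176 genes of at least 1 CPM, as a description over the 24 libraries. For Dbp the highest were Mxra8 (r = 0.777), Gm13375 (0.751), Mospd3 (0.715), Irf4 (0.713), Apcdd1 (0.702) and Sphk2 (0.699), the last being the gene that overlaps Dbp. The lowest were Pdk4 (-0.78), Srpk1 (-0.76), Nip7 (-0.753) and Heatr3 (-0.747). For Arntl the highest were Gnl2 (0.92), Ppp6r3 (0.896), Ccnl1 (0.895), Nob1 (0.889), Cdkn1a (0.888) and Siah1a (0.887), and the lowest Slc18b1 (-0.906), Hes6 (-0.884), Ftsj2 (-0.883) and Psmb8 (-0.876). Of all genes compared 7 had a lower r with Arntl than Hlf did, 117 than Per3 did and 830 than Dbp did. A higher r with Arntl than that of Per1 was held by 777 genes. With Dbp, 7 genes had a higher r than Per3 and 16 a higher r than Hlf. An r with Arntl as large as that of Dbp, Per1 or Per3 was therefore not particular to the clock genes. Each gene listed for Arntl had an r larger in size than that of Hlf.

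Markers of other cell types moved with some of the groups. The summed level of 12 hepatocyte markers was 57.0 to 193 CPM in labelled Acadl KO / Acadvl wt, 51.2 to 89.2 in labelled Acadl KO / Acadvl Het, 81.1 to 172 in Acadl Het / Acadvl KO, 127 to 421 in Acadl Het / Acadvl Het, 63.6 to 85.2 in Acadl Het / Acadvl wt and 53.1 to 71.3 in wild type. Against wild type 1 of these 12 was higher (Apoa1, log2 change 3.76, SE 1.44) and 0 lower, with a median of 2.69. Against Acadl Het 0 were higher and 7 lower, with a median of -1.90, when 27.9% of all genes were lower, and in Acadl Het / Acadvl KO hearts 0 were called. Apoc3, Fgb and Fgg were at 0 in 8, 7 and 9 libraries. The summed level of 9 adipocyte markers was 1206 to 2500 CPM in the 9 labelled Acadl KO libraries and 773.5 to 1186 CPM in the 15 others. Most of that was Fabp4 (636 to 2350 CPM), while Adipoq was at 0 to 1.02 CPM and Lep at 0 in 18 libraries. The 9 atrial markers summed to 189 to 2023 CPM in the labelled Acadl KO libraries and 353 to 699 CPM in the others. The highest sum was mostly Nppa (131 to 1922 CPM over all libraries), while none of the other atrial markers passed 104 CPM (Myl4). Of the 9 atrial markers 0 were higher and 3, 6 and 3 lower in the 3 comparisons. Among 9 fibroblast markers 0 were called against wild type, 4 were lower against Acadl Het (Col3a1, Lum, Pdgfra and Tcf21), and 1 was higher in Acadl Het / Acadvl KO hearts (Fn1). Of 9 endothelial markers 3 were higher (Pecam1, Kdr and Esam) and 2 lower (Tek and Vwf) against Acadl Het, with 0 called in the other 2 comparisons. Of 8 leukocyte markers tested 1 was higher (Cd68) and 1 lower (Itgam) against Acadl Het. In Acadl Het / Acadvl KO hearts Cd68 rose by 1.00 (SE 0.22) and Lyz2 by 0.56 (SE 0.20). Without the Alb-rich libraries Hlf stayed called in all 3 comparisons, at -1.31 against -1.47 in Acadl Het / Acadvl KO hearts. Ciart against wild type was then 0.43 and lost its call, as did Dbp against wild type, Per3 in Acadl Het / Acadvl KO hearts, and Tef, Per2, Nr1d1 and Arntl against Acadl Het. The part of the other markers in these levels was not tested.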

How the data were processed

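Counts of reads per gene, 1 file per library, are the authors' deposited values, raw and not normalized. Per the file headers, featureCounts 1.5.2 counted primary alignments over exons of UCSC mm10 genes, without strand, and a read that overlapped several genes counted for each. STAR 2.5.1b and, with another version number, featureCounts 1.5.3 appear in the submitters' processing notes. In R 4.3.3, edgeR 4.0.16 filtered genes with filterByExpr, scaled libraries by TMM and fitted 1 quasi-likelihood model to all 24 libraries, its terms being genotype and batch of RNA isolation. Two-sided p-values were adjusted by Benjamini-Hochberg over 15804 genes, at 0.05. They measure only the spread between samples, which the labels do not tie to separate mice. Levels are CPM with TMM factors. Residuals are of log2 CPM with a prior count of 2. limma 3.58.1 and DESeq2 1.42.0 gave alternatives. Chi-square over its degrees of freedom between libraries of the same genotype ran from 14.9 to 527.7, and each library counts as 1 sample. The values of 514.5 and 527.7 both involve Acadl Het / Acadvl Het replicate 1, and no other value passed 85.2. In that library Rn45s took 17.26% of counts, against 0.56% at most in any other. Replicates are numbered in accession order. The tests were tested on simulated data. The genes, lists and tests were chosen with earlier results of these data known. Named are the 10 genes, Acadl and Acadvl, up to 6 called genes per list with the largest change, and marker genes that moved. Also named are the 6 genes most and 4 least like Dbp and Arntl, and some glucocorticoid-induced genes, called or not. Promoters are from RefSeq (GRCm38.p6). A called gene of 1 list is left out and not reported here.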

Additional observations from a re-analysis of the deposited data

Results flagged for a closer look

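In each genotype of 4 or 5 libraries, the highest and lowest library of each gene was set against the nearest of the others, with the gap divided by the range. Of 50 such groups 2 had a library past the 95% critical value, and chance flags about 1 in 20 groups. Dbp in wild-type replicate 4 stood at 47.4 CPM, with the next wild-type library at 14.8 CPM (gap over range 0.896, critical value 0.829). That library was also the highest in wild type for Nr1d1, Ciart, Per3, Tef, Hlf, Per2 and Nr1d2, and the lowest for Arntl. Arntl in labelled Acadl KO / Acadvl Het replicate 4 stood at 37.0 CPM, with the next library of its genotype at 46.0 CPM (gap over range 0.716, critical value 0.71).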

How the results depend on the processing

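Calls of the 10 genes were the same in number or within 1.5 times with RLE size factors, DESeq2, limma voom, no filter on low counts, no batch term, batch 2 alone and Rn45s left out, in all 6 comparisons. Within RNA isolation batch 1 alone 0 genes were called against wild type, 1 against Acadl Het and 0 in Acadl Het / Acadvl KO hearts, where fewer libraries enter. Without the libraries above 10 CPM of Alb the first 2 counts were 2 and 4, the second with Acadl Het / Acadvl wt alone as controls, a choice made after seeing the data. Over all genes, 5874 calls against wild type became 86 in batch 1 and 3871 without the Alb-rich libraries, 8639 against Acadl Het became 2112 in batch 1, and 3853 in Acadl Het / Acadvl KO hearts became 208 in batch 1 and 2063 with the number in each sample's title, whose meaning is not given, as a block. The 700 calls between the labelled Acadl KO / Acadvl wt and Acadl Het / Acadvl KO genotypes became 1225 with DESeq2, 5 in batch 1, 54 in batch 2, 77 without the Alb-rich libraries and 329 with that block. They ran from 131 to 999 when 1 library was left out, at 217 and 131 without labelled Acadl KO / Acadvl wt replicates 1 and 2 and 248 and 278 without Acadl Het / Acadvl KO replicates 3 and 4. The interaction's 0 became 100 with DESeq2, 45 with no batch term, 116 with the block and 12 to 92 without any 1 of 6 libraries (replicates 1 and 4 of labelled Acadl KO / Acadvl wt, 2 and 4 of Acadl Het / Acadvl KO, 2 of Acadl Het / Acadvl Het and 4 of Acadl Het / Acadvl wt). Of the 45 pairs 4 were called in batch 1 and 8 in batch 2.

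Some log2 changes turned round. Within batch 1, Tef was 0.041, Per1 -0.15 and Arntl -0.011 against wild type, Dbp was 0.49, Per3 0.043 and Arntl -0.066 against Acadl Het, and Arntl was -0.045 in Acadl Het / Acadvl KO hearts, where Nr1d2 was 0.033 within batch 2. Per2 was -0.059 against wild type without the Alb-rich libraries. With the title number as a block in place of batch, Tef was 0.14, Per2 0.19, Nr1d2 0.27 and Per3 -0.47 (no longer called) in Acadl Het / Acadvl KO hearts, and against Acadl Het Tef (0.37) and Nr1d1 (-0.44) lost their calls. For pairs, Hlf with Per1 was 0.0689 in batch 1 and Dbp with Nr1d1 -0.0839 in batch 2. The cause was not tested.

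Leaving out each library in turn gave 2 to 5 calls against wild type, 5 to 8 against Acadl Het, 2 to 4 in Acadl Het / Acadvl KO hearts and 0 to 0 in the other 3 comparisons, with a median residual SD of 0.341 to 0.397 and 16 to 22 called pairs. Tef then ran from -0.17 to 0.079 and Per2 from -0.090 to 0.20 against wild type, and Tef from -0.25 to 0.026 and Per2 from -0.34 to 0.044 in Acadl Het / Acadvl KO hearts. The count against wild type was 2 without labelled Acadl KO / Acadvl wt replicate 2. Against Acadl Het it was 5 without that library, labelled Acadl KO / Acadvl Het replicate 5, replicate 3 of Acadl Het / Acadvl Het or replicate 4 of Acadl Het / Acadvl wt. Of the 21 called pairs 12 kept their call without each library and 9 lost it without some library. No paired analysis was possible because replicate numbers follow accession order and pair no samples. The block on the title number stands in place of batch, and groups libraries whose link is not given. That number could not serve as a block against wild type, which shares none, so number and genotype cannot be told apart there, and the interaction was not run without the Alb-rich libraries. With 3 to 5 libraries a group, the SE beside each value limits what was detectable.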
